A study of Homo sapiens with 6 samples.

Results

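The large subunit of the human cytosolic ribosome holds rRNA and a set of RPL proteins, among them the acidic P proteins of its stalk. Members of the family were taken by gene symbol, as RPL followed by a number with or without A, and RPLP0, RPLP1 and RPLP2. They came to 46 of the 10779 genes measured, and each of the 46 symbols was a current gene symbol in GENCODE 44. Of these, 44 had a value of translational efficiency (TE), 39 had values of ribosome occupancy and 37 had both. RPL5, RPL6, RPL15, RPL21, RPL26, RPL27 and RPL34 had TE alone, and RPL39 and RPL41 had occupancy alone.

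Ribosome profiling was carried out in HEK293 cells, an established line from human embryonic kidney, labelled as treated with a control siRNA. Cycloheximide at 100 µg/ml was in the lysis buffer and, by the paper's methods, was also given to the cells before lysis. There were 3 libraries of ribosome-protected fragments (RPFs) and 3 of total RNA, numbered 1 to 3, and no second condition, so the comparisons are between genes in 1 state of 1 line. In the TE table RPFs are set against total RNA as a ratio, with 1 value for each of 3 replicates, and the occupancy table gives in-frame RPFs at each codon over the TPM of the transcript, with the replicates combined and therefore without error. Library totals are not in these tables, and nothing in the labels says that the replicates were separate cultures, so p-values measure only the spread between these samples.

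Ribosomal proteins are made in the cytosol, imported into the nucleolus and assembled there with rRNA. Their mRNAs are abundant, and most begin at the cap with a C followed by an unbroken stretch of pyrimidines, the 5′ terminal oligopyrimidine (TOP) tract. LARP1 and mTOR signalling control translation through this tract. Ribosomal protein genes have also left many processed pseudogenes in the genome, and several carry snoRNA genes in their introns.

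The tract is the feature that ties these mRNAs together, so the annotated start sites were examined for it. RefSeq windows on GRCh38.p14, from 15 bases before to 15 bases after the annotated start site, were found for 38 members. In 31 of them (81.6%) the window held an unbroken run of at least 8 C or T on the coding strand. The share was 78.6% of 28 genes of small-subunit proteins (RPS), 16.7% of 42 genes of the large subunit of the mitochondrial ribosome (MRPL) and 16.5% of all 27305 genes with a window. The median longest run was 12 bases for RPL genes and 5 bases for all genes. Where a gene had several annotated start sites, the window with the longest run was taken. Runs were counted anywhere in the window, also before the start site, so run length is not the length of a TOP tract. Windows of some members are shown with the longest pyrimidine run in capitals. They are those of some members with high or low TE (RPL7A, RPL28, RPL18 and RPLP0) and of the P stalk proteins. RPL3 is added as a member with a very short run and the highest 5′UTR occupancy.
RPL7A, chr9:133348203-133348232, plus strand: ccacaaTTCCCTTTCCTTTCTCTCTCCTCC
RPL28, chr19:55385917-55385946, plus strand: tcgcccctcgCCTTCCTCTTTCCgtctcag
RPLP1, chr15:69452803-69452832, plus strand: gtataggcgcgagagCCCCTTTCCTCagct
RPLP2, chr11:809952-809981, plus strand: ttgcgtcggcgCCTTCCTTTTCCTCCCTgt
RPL12, chr9:127451392-127451421, minus strand: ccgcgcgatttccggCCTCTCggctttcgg
RPLP0, chr12:120201097-120201126, minus strand: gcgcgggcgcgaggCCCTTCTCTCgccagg
RPL18, chr19:48619164-48619193, minus strand: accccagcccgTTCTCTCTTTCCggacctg
RPL3, chr22:39319609-39319638, minus strand: gtaaggccgaccggCCTCTaccggcgggat
The run was at least 24 bases in RPL7A, which had the highest TE of the family, and 10 bases in RPLP0, which had the lowest. RPL18, also low in TE, had a run of 12 bases, and run length was not tested against TE. In RPL7A the run reached the end of the window, and a run that meets an edge of the window is counted only up to it. RPL12 (6 bases) and RPL3 (5 bases) were among the members with runs under 8 bases, and further members also had a run of 5 bases. Start sites used in HEK293 cells were not measured here, and a run in the window is a description of the annotated sequence.

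RPL mRNAs as a group had high TE. Of the 44 members, 41 lay above the median of all genes and 3 lay below it (limma on log2(TE + 0.01), Benjamini-Hochberg adjusted over 8121 genes, FDR 0.05), where 44.7% of all genes tested were called above, 44.6% below and 89.3% in either direction. The largest adjusted p of a member was 0.000826, for RPL29. Because the replicates were so close that most genes were called, the split between directions and the size of the difference carry more than the number called. The median TE of the members was 1.73, 1.82 and 1.92 in replicates 1, 2 and 3, and the median of all genes was 0.382, 0.380 and 0.388. The median difference of a member from all genes was 2.24 on the log2 scale. Over the 13 members with under 50% of the coding sequence shared with other genes, described below, the median TE was 1.19.

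Within the family, TE varied much more between genes than between replicates. The SD between members was 2.02 on the log2 scale, against a median SD between replicates of 0.0819, and for all genes the values were 1.56 and 0.101. The quartiles of the members lay at a TE of 1.01 and 3.52. On the log2 scale the pairs of replicates had Pearson coefficients of 0.9989, 0.9988 and 0.9986 over the 44 members, a description over genes that share libraries. Of the 43 pairs of neighbours in the order of mean TE, 16 were further apart than the sum of their SDs and 27 were not. By this measure the order was clearer at its ends than in the middle, as the plot of TE by replicate shows. The measure does not pair genes within a replicate, and some neighbours counted as not apart kept their order in every replicate.

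**Figure D1:**
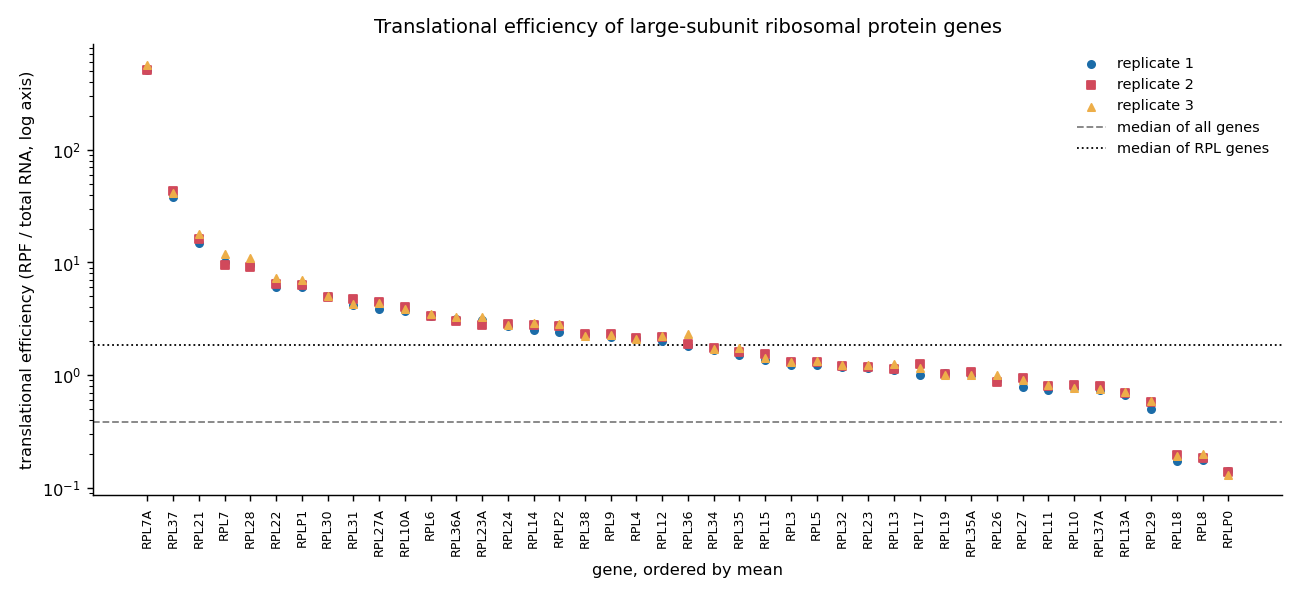
TE of 43 RPL genes in replicates 1, 2 and 3 on a log axis, ordered by mean, with the medians of all genes (dashed, 0.385) and of the RPL genes (dotted, 1.85). RPL7A stood at 508 to 570, and RPL18, RPL8 and RPLP0 were below the dashed line in every replicate.

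The highest TE belonged to RPL7A, the eL8 protein, with 513, 508 and 570 in replicates 1, 2 and 3 (530 ± 34.8, SD, n = 3). It was the 2nd highest of all 8121 genes. RPL37 followed with 38.0, 43.4 and 41.1 (40.8 ± 2.72). These were separated from each other and from every other member in all 3 replicates. RPL21 had 14.9, 16.2 and 18 (16.4 ± 1.56), RPL7 had 10.0, 9.55 and 11.9 (10.5 ± 1.25), and RPL28 had 9.41, 9.14 and 11.0 (9.85 ± 1.00). The ranges of RPL7 and RPL28 over replicates overlapped, and the gap between their means was under the sum of their SDs. Within each replicate RPL7 was nevertheless above RPL28.

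The 3 members below the median of all genes were RPL18, RPL8 and RPLP0. RPL18, the eL18 protein, had a TE of 0.173, 0.198 and 0.193 (0.188 ± 0.0131), and RPL8, the uL2 protein next to the peptidyl transferase centre, had 0.178, 0.184 and 0.201 (0.188 ± 0.0121). RPLP0, the base of the P stalk, had 0.142, 0.137 and 0.130 (0.137 ± 0.00576). RPL18 and RPL8 could not be separated from each other, and RPLP0 was lower than both in each replicate. The differences from all genes were -0.99, -0.99 and -1.42 on the log2 scale, with standard errors of 0.0594, 0.0571 and 0.0516. RPL29, another member near the bottom of the order, had 0.505, 0.575 and 0.593, above the median of all genes by 0.53 on the log2 scale.

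Each member was also compared with the median of the family in its own replicate. By construction close to equal numbers fall on either side: 21 members were called above and 21 below, where 8.11% of all genes were called above and 88.9% below this level (97.0% in either direction). RPL36 (0.13 on the log2 scale above) and RPL34 (-0.10) were the members not called. The distance from the family median was 8.18 for RPL7A and -3.64 for RPLP0.

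Genes of related function gave a background for these values. RPS genes had a median TE of 1.84, with 27 of 30 above the median of all genes, 1 below and 2 not called, where 44.7% of all genes were called above and 44.6% below. RPS29 (33.0) was near the top of them, and FAU (0.362) and RPS14 (0.306) were the lowest. Translation factors and other proteins with known TOP mRNAs had a median of 1.59, and 15 of 15 lay above, beside the same 44.7% of all genes, from NACA (0.442) and EIF4B (0.541) to HNRNPA1 (19.8) and EEF1B2 (162). No list was tested against another.

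Proteins that belong to the other ribosome of the cell, or that build the large subunit without staying in it, had lower medians, and their counts stand beside the same 44.7% of all genes above and 44.6% below. MRPL genes had a median TE of 0.897, with 34 of 47 above, 9 below and 4 not called, between MRPL55 (0.0660) and MRPL43 (0.0807) at the bottom and MRPL22 (2.90) and MRPL50 (4.65) at the top. Assembly and export factors of the 60S subunit had a median of 0.840, with 33 of 48 above, 13 below and 2 not called. SENP3 (0.0617) and WDR74 (0.0927) were the lowest and WDR12 (5.73) and RRP15 (7.91) the highest of these. Single genes of both lists exceeded the RPL median, so the lists overlap.

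**Figure D2:**
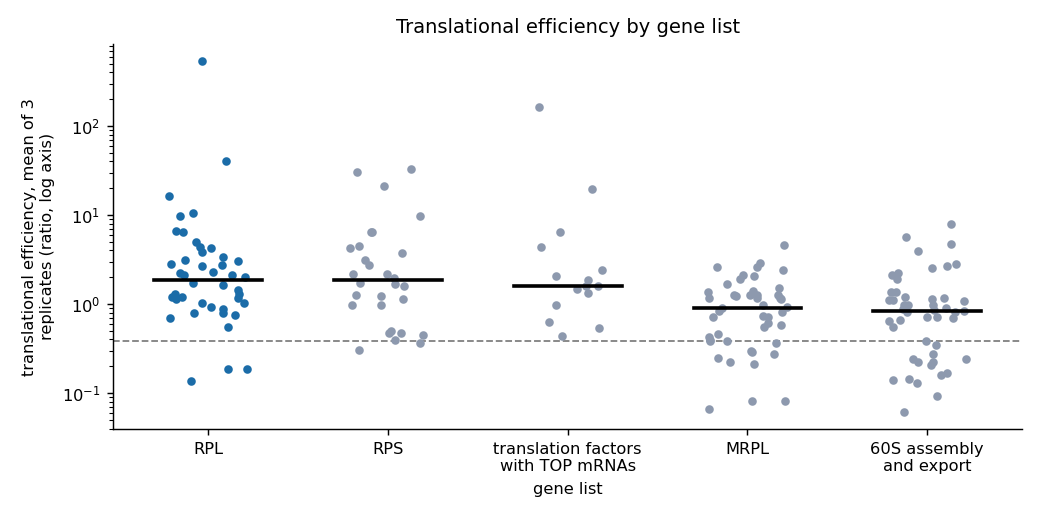
TE (mean of 3 replicates, log axis) of the genes reported in 5 lists, with the median of each list as a black bar and the median of all genes (0.385) as a dashed line. The bars stand at 1.85 for RPL, 1.84 for RPS, 1.59 for translation factors with TOP mRNAs, 0.897 for MRPL and 0.840 for 60S assembly and export.

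The P stalk recruits and activates the GTPases of translation. RPLP0 anchors dimers of RPLP1 and RPLP2 and binds the rRNA beside RPL12. The mRNAs of these partners differed widely in TE. RPLP1 had 6.10, 6.30 and 7.0 (6.47 ± 0.470), and RPLP2 had 2.44, 2.72 and 2.83 (2.66 ± 0.199). RPL12 had 2.00, 2.17 and 2.21 (2.13 ± 0.112), against 0.137 ± 0.00576 for RPLP0. RPLP1 was above RPLP2 and RPLP2 above RPL12 in every replicate, and RPLP0 stood alone at the bottom of the family.

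Ribosome occupancy per codon brought RPLP1 and RPLP2 together and left RPLP0 lowest. The mean over the CDS was 0.0837 for RPLP2, 0.0796 for RPLP1, 0.0266 for RPL12 and 0.0145 for RPLP0, the lowest of the 39 members. RPL12 thus had a TE above the family median and an occupancy near the bottom, while RPLP0 was lowest in both. In relative RNA level, explained with the read numbers, RPLP0 stood at 133 and RPL12 at 127 times the median transcript, RPLP2 at 84.4 and RPLP1 at 64.6.

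The other functional groups showed no common level of TE. RPL5 and RPL11 bind 5S rRNA and also restrain MDM2. Their TE was 1.29 ± 0.0522 and 0.792 ± 0.0414, both above the median of all genes and both below that of the family. Around the peptidyl transferase centre, RPL3 (1.29 ± 0.0419) and RPL10 (0.786 ± 0.0215) lay above all genes and RPL8 (0.188 ± 0.0121) below. Of the proteins that make bridges to the small subunit, RPL30 (5.03 ± 0.0862), RPL24 (2.79 ± 0.0735) and RPL23 (1.19 ± 0.0278) lay above all genes, and RPL41 had no TE value.

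Proteins that line the exit tunnel or ring its mouth, where chaperones and the signal recognition particle dock, were above the median of all genes in 8 of 8 cases where measured, beside 41 of 44 in the family and 44.7% of all genes. They ran from RPL26 (0.935 ± 0.0693) and RPL19 (1.03 ± 0.0196) to RPL31 (4.39 ± 0.284) and RPL22 (6.62 ± 0.612), with RPL17, RPL35, RPL4 and RPL23A between. RPL39, which lies deep in the tunnel, had no TE value and a mean occupancy of 0.137, above 90.3% of transcripts. Genes mutated in Diamond-Blackfan anaemia, a failure of red cell production, were above in 8 of 9 cases, from RPL11 (0.792) to RPL31 (4.39), and RPL18 was the exception. The same 41 of 44 in the family and 44.7% of all genes stand beside this count. Their median TE was 1.03, and RPL26, RPL31 and RPL35 belong to both lists.

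Several close relatives of these proteins carry names outside the family rule. RPL36AL, which encodes a near copy of RPL36A, had 5.16, 4.72 and 5.12 (5.00 ± 0.242), above RPL36A itself at 3.14, 3.06 and 3.30. RPL22L1 (0.821 ± 0.0438) was lower than RPL22 (6.07, 6.50 and 7.28) in every replicate. RPL7L1 (1.36), RPL26L1 (1.08) and the readthrough gene RPL17-C18orf32 (1.37) lay above the median of all genes as well. By the measure of shared coding sequence described below, RPL36AL had 69.9% shared and RPL36A 81.3%, RPL22L1 17.4% and RPL22 96.9%. RPL7L1 had 81.7%, RPL26L1 75.8%, RPL17-C18orf32 96.0% and RPL17 100%. The differences between paralogs, and how shared reads were divided between these genes, were not tested.

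The occupancy table separates the RNA level from the RPFs. Low values within a transcript were whole multiples of 3 steps, the worth of 1 read in each replicate, which could be solved for 27 of the 39 members. Dividing by the smallest and the largest step bounds the in-frame reads on each CDS, from at least 22585 in RPL18 to at most 290470 in RPL4. The step also gives the RNA level of a transcript relative to the median transcript, since occupancy was divided by TPM. RPL mRNAs stood at a median of 84.4 times the median transcript, RPS mRNAs at 82.9 times and MRPL mRNAs at 4.93 times. The lowest members were RPL28 (3.54 times, for a form that is not the canonical one) and RPL27A (15.8 times), and the highest was RPL41 (182 times).

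Mean occupancy per CDS codon was moderately above that of other transcripts. Its median over the 39 members was 0.0742, against 0.0450 over all 9570 transcripts and 0.0639 over the 2755 transcripts of at most 300 codons, which are closer to the members in length. RPS genes had 0.0597 and MRPL genes 0.0626. Of the members, 31 (79.5%) exceeded the median of the table, as did 64.1% of the transcripts of at most 300 codons. Reads covered a median of 95.4% of the codons of a member, 94.7% in RPS genes and 79.4% in MRPL genes. The median was 69.3% in transcripts of at most 300 codons and 56.6% in all transcripts. With the median over codons in place of the mean, occupancy was 0.0215 for members and 0.0152 for MRPL genes. It was 0.0132 for transcripts of at most 300 codons and 0.00717 for all transcripts. Coverage and the median over codons also depend on the number of reads, which is higher for abundant mRNAs such as those of the family. These values carry no replicate error and were not tested.

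The members with the highest mean occupancy were RPL28 (0.989), RPL27A (0.368), RPL37 (0.297) and RPL32 (0.279). RPL27A and RPL28 were also the members with the lowest recovered RNA level. Both values of RPL28 belong to the deposited form, which is not the canonical one, and over the 34 members of canonical length the highest occupancy was 0.368 and the lowest RNA level 15.8 times, both in RPL27A. RPLP0 (0.0145) was the lowest, and RPL18 (0.0231) and RPL8 (0.0261) were also near the bottom, so the 3 members of lowest TE had low occupancy as well. Over the 39 members mean occupancy declined with the length of the canonical CDS (Spearman coefficient -0.56, a description over genes that share libraries). RPL4, the longest with 428 codons counting the stop, had 0.0379, and RPL41, the shortest with 26 codons, had 0.0786.

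TE and occupancy ranked the members alike in part. Over the 37 members with both, which rest on the same RPF and total RNA libraries, the Spearman coefficient was 0.63, and over the 6912 genes with both it was 0.69. RPL7A was the member furthest from the others: its TE was 1st of 37 and its occupancy of 0.0543 was 26th, above 59.1% of transcripts. Its ratio of TE to occupancy was 416 times the family median of this ratio, and the next highest was RPL37 at 5.85 times. Without RPL7A the Pearson coefficient on the log2 scale was 0.70, and with it 0.50. At the other end, RPL32 (1.20 in TE, 23rd, and 0.279 in occupancy, 4th) and RPL13 (1.17, 25th, and 0.181, 6th) had high occupancy for their TE.

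**Figure D3:**
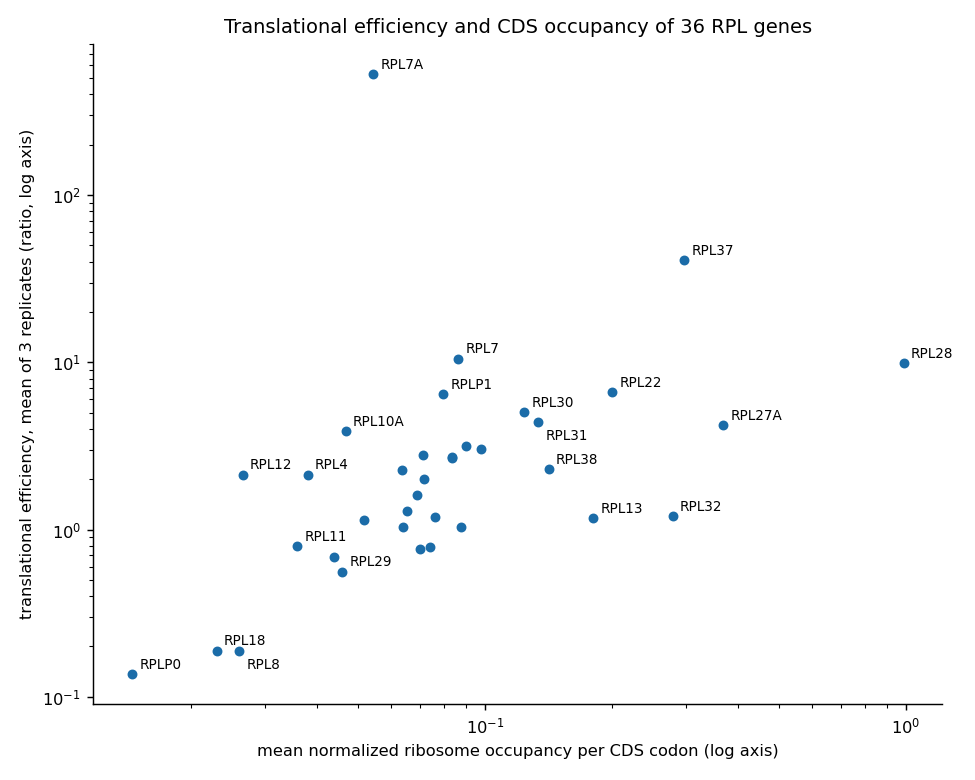
TE (mean of 3 replicates) against mean normalized ribosome occupancy per CDS codon for 36 of the 37 RPL genes with both values, on log axes, with 1 point per gene and names for points away from the centre. RPL7A (530 and 0.0543) lies far above the other points, and RPLP0, RPL18 and RPL8 form the lower left corner.

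Much of the coding sequence of these genes exists elsewhere in the transcriptome, which bears on how short reads could be placed. A median of 78.8% of the 30-nt words in a member's CDS also occurred in an annotated transcript of another gene, on GRCh37 with GENCODE 44. At least 50% was shared in 33 of the 46 members (71.7%), in 70.0% of RPS genes and in 10.1% of the 7600 genes of the TE table with a value. RPL21 had 133 annotated pseudogenes, RPL23A 87 and RPL7A 80. The CDS of RPL7, RPL17, RPL21, RPL39 and RPL41 was shared over 100% of its length.

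Median TE was 2.13 in the 31 members with at least 50% of the CDS shared and 1.19 in the 13 members with less. The Spearman coefficient between shared percentage and TE was 0.15 over the 44 members, so the relation was weak across the family. Members at both ends of TE were found on either side: RPLP0 (83.5% shared) and RPL7A (89.4%) among the shared, RPL18 (16.4%), RPL8 (22.1%), RPL37 (45.3%) and RPL28 (15%) among the less shared. RPL7A (chr9:136215073-136218281 on GRCh37, plus strand) also holds 4 snoRNA genes in the gene, SNORD24, SNORD36A, SNORD36B and SNORD36C. The 18 members with snoRNA genes inside had a median TE of 1.71 and the 26 without had 1.85. What part shared sequence or snoRNA genes had in any single TE value was not tested.

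**Figure D4:**
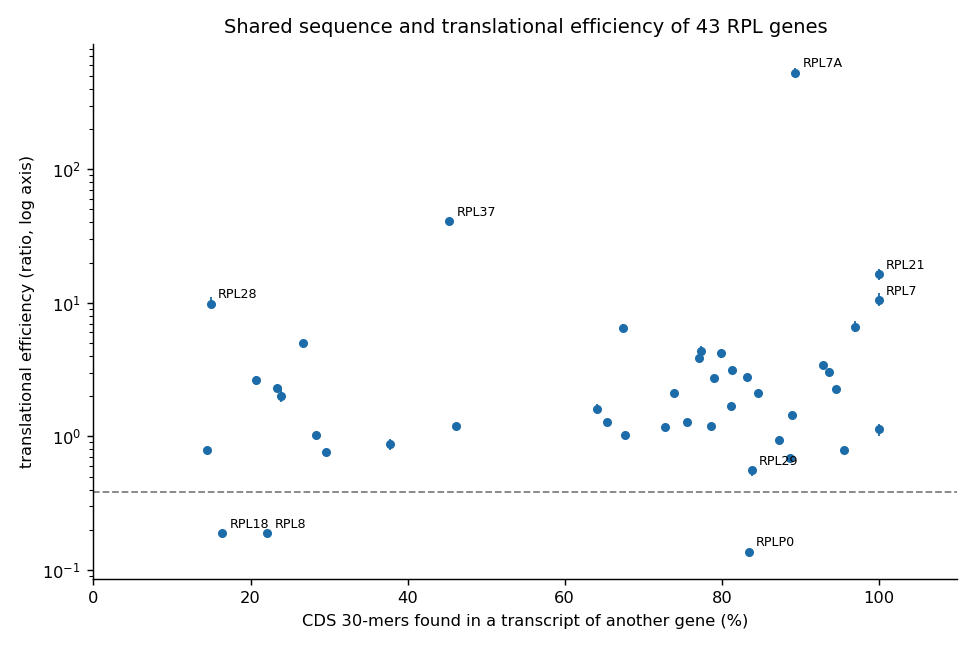
TE of 43 RPL genes on a log axis (points, mean of 3 replicates; bars, lowest and highest replicate) against the percentage of 30-nt words of the CDS found in a transcript of another gene. High and low TE occur at both ends of the horizontal axis, and the dashed line is the median of all genes (0.385).

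The codon profiles show which part of each deposited CDS carried the reads. For 34 of the 39 members the CDS in the occupancy table had the length of the canonical GENCODE form. The other members were RPL10, RPL11, RPL18, RPL28 and RPL36A. RPL28 was represented by a form of 170 codons with the stop, where the canonical form has 138, and the first 108 codons are the same in both. Occupancy averaged 1.55 over those 108 codons and 0.0174 over the other 62, which held 0.640% of the CDS sum. In these data the reads of RPL28 thus lay on the part common to both forms.

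RPL36A was represented by a form of 143 codons, with 36 codons before a canonical frame of 107. Occupancy averaged 0.000160 over the first 36 codons and 0.121 over the last 107, and codon 37, the start of the canonical frame, was the first to exceed 10% of the CDS mean. RPL10 had a form of 146 codons that matched no annotated CDS of that length, where the canonical form has 215. Its 3′UTR held 9.91% of the in-frame occupancy summed over the CDS and both UTRs. In it 23 codons, from the 10th to the 56th in the 3′UTR list, exceeded 10% of the CDS mean. For RPL18 the form (160 codons, canonical 189) shared its last 159 codons with the canonical CDS, and for RPL11 (178, canonical 179) it shared the last 176.

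Ribosomes were unevenly spread along each CDS, and single codons held large shares. The 10 highest codons of a member held a median of 41.8% of its CDS sum, against 42.5% in all transcripts of at most 300 codons. The highest single share was at codon 100 of RPL30, with 24.6% of the CDS sum and 28.5 times the CDS mean. Codon 23 of RPL41 held 15%, codon 1 of RPL35A 14.2% and codon 9 of RPL39 12.8%. The sequences around the peaks of RPL41, RPL35A, RPL39 and RPL28 were read from the matched GENCODE 44 coding sequences, with up to 4 codons on each side and the codon of highest occupancy in capitals.
RPL41 codon 23, gene at chr12:56510374-56511751 on GRCh37, plus strand: aagatgaggcagAGGtccaagtaa
RPL35A codon 1, gene at chr3:197677061-197683481, plus strand: ATGtctggaaggctg
RPL39 codon 9, gene at chrX:118920467-118925593, minus strand: aagactttcaggATTaagcgattcctg
RPL28 codon 43, gene at chr19:55897300-55914618, plus strand: cgctacaacggaCTGattcaccgcaag
These are exonic sequences in the CDS, and the CDS of RPL39 and RPL41 is shared in full with other transcripts. The position of a codon depends on the fixed offset that the authors applied to each RPF. The peak of RPL41 is 3 codons before the end of its CDS list, that of RPL35A is the start codon, and the others are internal.

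The codon of highest occupancy was ATT in 5 of the 35 members whose peak codon was read here, CTG in 4 and AAG in 3. Occupancy was averaged within a member for each codon and set to the CDS mean. Of the isoleucine codons, ATC stood at a median of 1.22 and ATT at 1.05 over 35 members each, and ATA at 0.386 over 13. The leucine codons ran from CTC at 0.390 over 32 members to CTA at 1.26 over 14. AAG and AAA, the lysine codons that are frequent in these basic proteins, stood at 0.779 and 0.352 over 38 members each, and AAA exceeded 1 in 4 of them. All are descriptions over genes that share libraries, from ribosomes treated with cycloheximide.

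**Figure D5:**
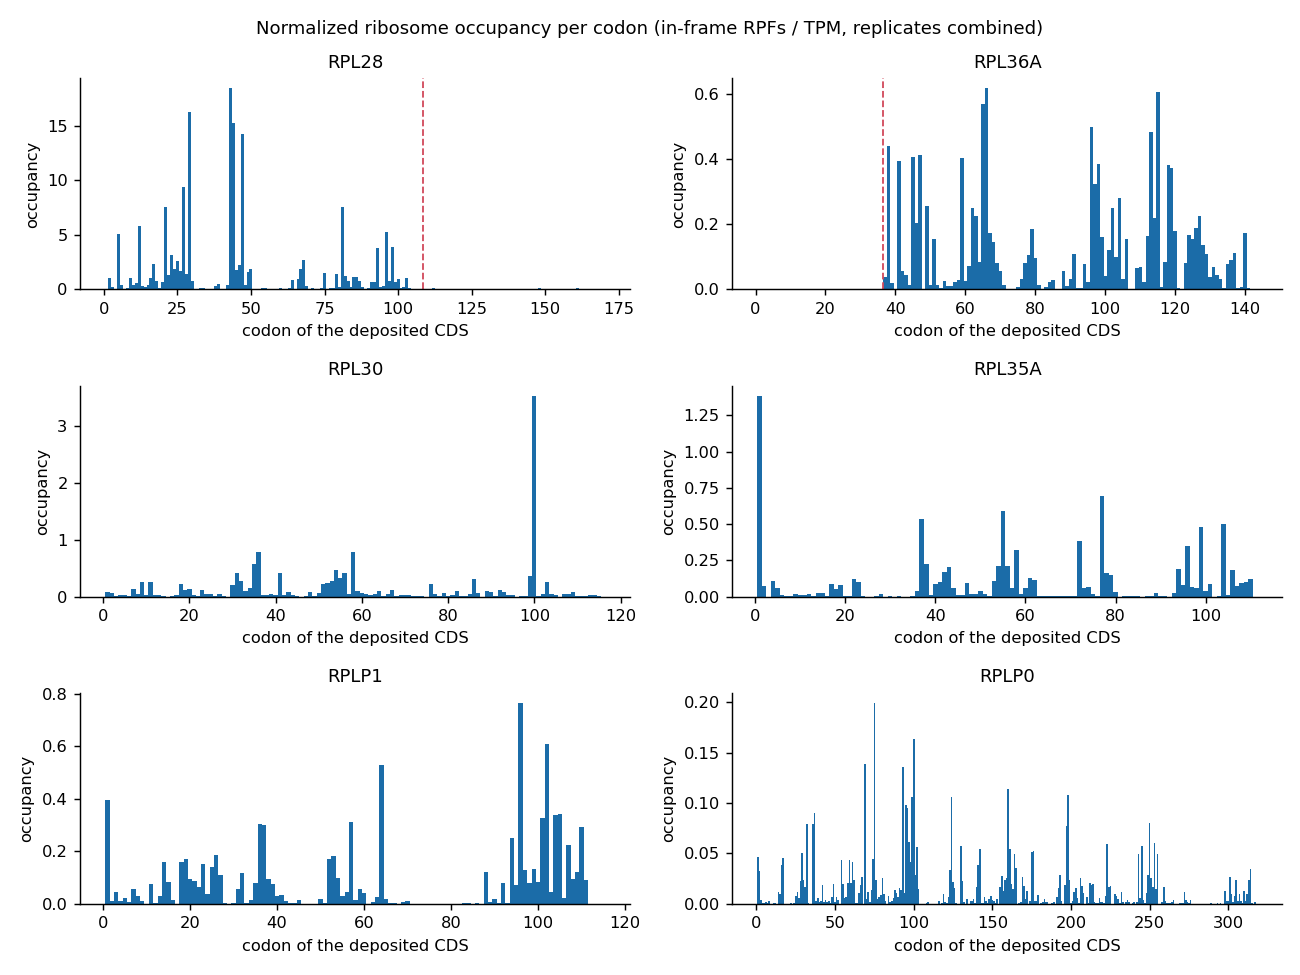
Normalized ribosome occupancy at each codon of the deposited CDS for RPL28, RPL36A, RPL30, RPL35A, RPLP1 and RPLP0, with replicates combined and a vertical axis of its own for each gene. The dashed lines mark the end of the 108 codons that RPL28 shares with its canonical form and the start of the canonical frame of RPL36A at codon 37, and the single high bar of RPL30 is codon 100.

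Start codons and the ends of the CDS differed from gene to gene. Occupancy of the start codon over the CDS mean had a median of 0.590 over the members, 1.84 over RPS genes and 0.286 over all transcripts. It reached 15.7 in RPL35A, 11.2 in RPL3 and 9.79 in RPL27A. The ratio of the mean over the first 75 codons to that over the last 75 had a median of 0.981 over the 34 members long enough to be measured, and 16 of 34 (47.1%) exceeded 1, as did 49.3% of all transcripts measured. It was 9.47 in RPL28, whose later codons are not in the canonical form, and 0.267 in RPL23A. RPLP1 had 0.827 and RPLP0 2.27.

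Outside the CDS, in-frame occupancy was very low. UTR shares are given as percentages of the occupancy summed over the CDS and both UTRs. The 5′UTR held a median of 0.0621% for members, 0.0770% for RPS genes and 0.364% for all transcripts. The 5′UTRs of the members are short, with a median of 22 in-frame codons against 56 for all transcripts. RPL3 had the highest share (1.85%), followed by RPL39 (1.53%). Over the 17 codons that precede the start codon, measured for 27 members, the highest means were 0.0293 in RPL3, 0.00653 in RPL39 and 0.00429 in RPL35A, against a median of 0.000504 for members and 0.00145 for all transcripts. RPL3 and RPL35A were thus high both just before and on the start codon.

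The 3′UTR held a median of 0.00388% of the same total for members and 0.0165% for all transcripts. RPL10 (9.91%), RPL41 (1.46%) and RPL39 (0.383%) were the highest. For RPL10 the reads follow a CDS that is shorter than the canonical one, as given with its profile. RPL41 and RPL39 are the shortest members, with 26 and 52 codons, while RPL38, the next shortest with 71, had 0.00884%.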

How the data were processed

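Libraries from HEK293 cells, 3 of RPFs and 3 of total RNA, underlie both tables. The submitters' processing notes name cutadapt 1.16, Bowtie 1.1.2, TopHat2 2.1.1 and HTSeq 0.9.1 and the build hg19; the paper's methods name Hisat2 for total RNA. The authors removed adapters, PCR duplicates and reads of rRNA and tRNA, and aligned RPFs to the transcriptome. The deposited TE values are linear ratios of RPFs to total RNA, with no formula stated. The deposited occupancy values are in-frame RPF counts, scaled by library size and set over TPM, at each codon of 1 transcript per gene and with the replicates combined. The number of columns of samples that were not used was 0. Reads that fit several genes can be lost or assigned to one of them at alignment, which differs between genes with and without copies.

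TE was fitted across all 8121 genes with limma 3.58.1 (R 4.3.3), using log2(TE + 0.01) without a filter on low values, against the median of all values and against the RPL median of each replicate, two-sided. P-values were adjusted by Benjamini-Hochberg, with an FDR threshold of 0.05. Each lysate gave both an RPF and a total RNA library per the labels, so the deposited ratios already hold the pairs. The fit and the search for steps of 1 read, at a relative tolerance of 1e-08, were checked on simulated data. Broken CDS lists in the occupancy table were rejoined, and none was of a member. GENCODE 44 lifted to GRCh37 gave coding sequences, pseudogenes and snoRNA genes, and RefSeq on GRCh38.p14 gave start site windows. Python 3.11.15, numpy 2.4.6 and pandas 2.3.3 were used.

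The members, the lists and the tests were chosen with earlier results of these data known. The genes named are the P stalk genes, the 5 highest and 5 lowest in TE, the 4 highest and 4 lowest in occupancy, the 5 highest in single-codon share, the 3 highest in each UTR measure, members of the functional groups, forms outside the family rule and the 2 highest and 2 lowest of each other list. Alternatives were another pseudocount, a filter on low TE, each replicate left out, the replicate block and other windows of codons, and after the values were seen, members with less shared sequence, with the canonical CDS length and without RPL7A. Other genes named with a value (RPL4, RPL13, RPL17, RPL23A, RPL24, RPL34, RPL36, RPL38) were chosen after their values were seen. Amino acid sequences were not used here. Some genes that the rule takes are not reported here, and the figures leave them out, while the counts and medians include them.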

Additional observations from a re-analysis of the deposited data

How the results depend on the processing

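The 41 members above and 3 below the median of all genes were found again with a pseudocount of 0.1, with genes of a mean TE of at least 0.05 only, and without each replicate in turn (41 to 41 and 3 to 3). With the replicate block, in which each replicate's own median was removed, the counts were 41 and 3. Against the RPL median, where the block is part of the fit, the counts without the block were 21 above and 21 below. Leaving out a replicate gave 19 to 21 above and 20 to 20 below.

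The median TE of 1.85 was 1.78 to 1.91 without a replicate, and 1.19 in members with under 50% of the CDS shared, 2.13 in members with the canonical CDS length and 1.70 without RPL7A, so it moved with the choice of members by more than the SD of 0.0947 between replicates. Members with under 5% shared gave no value, because there were none. Median occupancy was 0.0742 as a mean over codons and 0.0215 as a median over codons, and it moved by under 10% without the end codons (0.0765), with a CDS over 300 nt (0.0715) and with the canonical length (0.0738). The ratio of first to last codons was 0.981 with 75 codons, 1.12 with 50 codons, 1.01 without the first and last 5 codons and 0.956 with the canonical length, so its side of 1 depended on the window. The causes were not tested. The TE table holds no read numbers, so the counting error of a TE value was not computed, and occupancy has no replicate error.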
